A study of Gallus gallus with 6 samples.

Results

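The genes described here are the Wnt ligands, their receptors, their secreted antagonists and the nearest parts of the signalling chain, in chicken lens explants given the vehicle DMSO or GSK-J4. The rule that picks them reads gene symbols and no measured value, although the pathway was proposed with earlier results of these data known: WNT, FZD, SFRP, DKK, LRP5 and LRP6, AXIN, WIF1, RSPO, LGR4 to LGR6, ROR, RYK, TCF7 and its relatives, LEF1, NKD, RNF43, ZNRF3, DVL, PORCN and WLS. The rule found 55 of the 24356 genes of the count table, of which 13688 carry a symbol. Of the 55 genes, 42 had at least 10 counts in 3 or more libraries.

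Explants of Gallus gallus ocular lens were cultured after a simulated cataract operation, in complete medium with 10% fetal bovine serum at 37 degrees Celsius and 5% CO2. After such an operation, lens epithelial cells left on the capsule can divide, migrate and turn into contractile, matrix-producing myofibroblasts. GSK-J4 enters cells and inhibits KDM6A and KDM6B, the demethylases that take methyl groups off lysine 27 of histone H3. DMSO or GSK-J4 was given daily between day 1 and day 3 after the injury, with 3 libraries in each group, so the serum, the injury and the culture were common to both groups. The strain and age of the birds and the dose of GSK-J4 were not given in the sources, and the labels do not say whether the replicates are separate animals or cultures. The p-values therefore measure only the spread between these libraries. W-linked counts, given below, differed within each group, so the libraries of a group were not all repeats of the same sample. Whether they stand for animals, pools or cultures is not known.

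Wnt proteins are secreted, lipid-modified signals. PORCN attaches the lipid, and WLS carries the ligand to the cell surface. On the receiving cell a ligand that binds a Frizzled receptor together with LRP5 or LRP6 draws in Dishevelled and AXIN, which stops the destruction of beta-catenin and lets it act with TCF and LEF factors on target genes. Other ligands, WNT5A and WNT5B among them, act mostly through Frizzled with ROR or RYK on cell polarity and movement, without beta-catenin. SFRP, WIF1 and DKK proteins block the pathway outside the cell, while R-spondins, through LGR receptors, keep the ubiquitin ligases ZNRF3 and RNF43 from clearing Frizzled. In the lens, Wnt signalling is known for its part in keeping the epithelial sheet and in the ordered elongation of fibre cells.

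Summed counts per library were 14862268 to 22541756. Crystallin genes took 20.8 to 25.5% of counts. Summed markers of the lens epithelium, mostly the crystallin gene CRYAA, and of lens fibres were abundant in both groups. Counts of W-linked genes ranged from 15.6 to 938 CPM (counts scaled to a common library size), so the mix of sexes differed between libraries. DMSO replicate 3 stood apart most often among the Wnt genes: it was the highest or the lowest of the 6 libraries in 24 of the 41 that were tested (58.5%), against 43.2% of all tested genes. The same library had the highest summed CPM of myofibroblast and fibroblast markers (3920, against 2580 in the lowest DMSO library) and of mitotic genes (963, against 640).

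Of the 41 Wnt genes tested, 3 fell and 1 rose under GSK-J4. The ligand WNT5B, the R-spondin RSPO3 and the secreted antagonist SFRP4 were lower, and the receptor RYK was higher. A call here means an adjusted p below 0.05 in edgeR's quasi-likelihood test with Benjamini-Hochberg adjustment over all 12583 genes tested. The 3 genes called lower were 7.32% of the 41, against 3.99% of all tested genes (502), and the 1 gene called higher was 2.44%, against 1.05% (132). In either direction the share was 9.76%, against 5.04%. At an unadjusted p below 0.05 there were 11 of 41 (26.8%), 7 higher and 4 lower, against 19.1% of all genes. In 13 of 41 genes (31.7%) the CPM of the 2 groups did not overlap, 9 with the GSK-J4 libraries above and 4 with them below, against 24.3% of all genes. Unrounded values were compared, so the 13 include ZNRF3, whose nearest libraries are both at 17.6 CPM. The median log2 fold change of the 41 genes, GSK-J4 minus DMSO, was 0.01, beside 0.01 over all genes, and 20 of the 41 values were negative. All these counts describe genes that passed the filter on low counts.

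**Figure D1:**
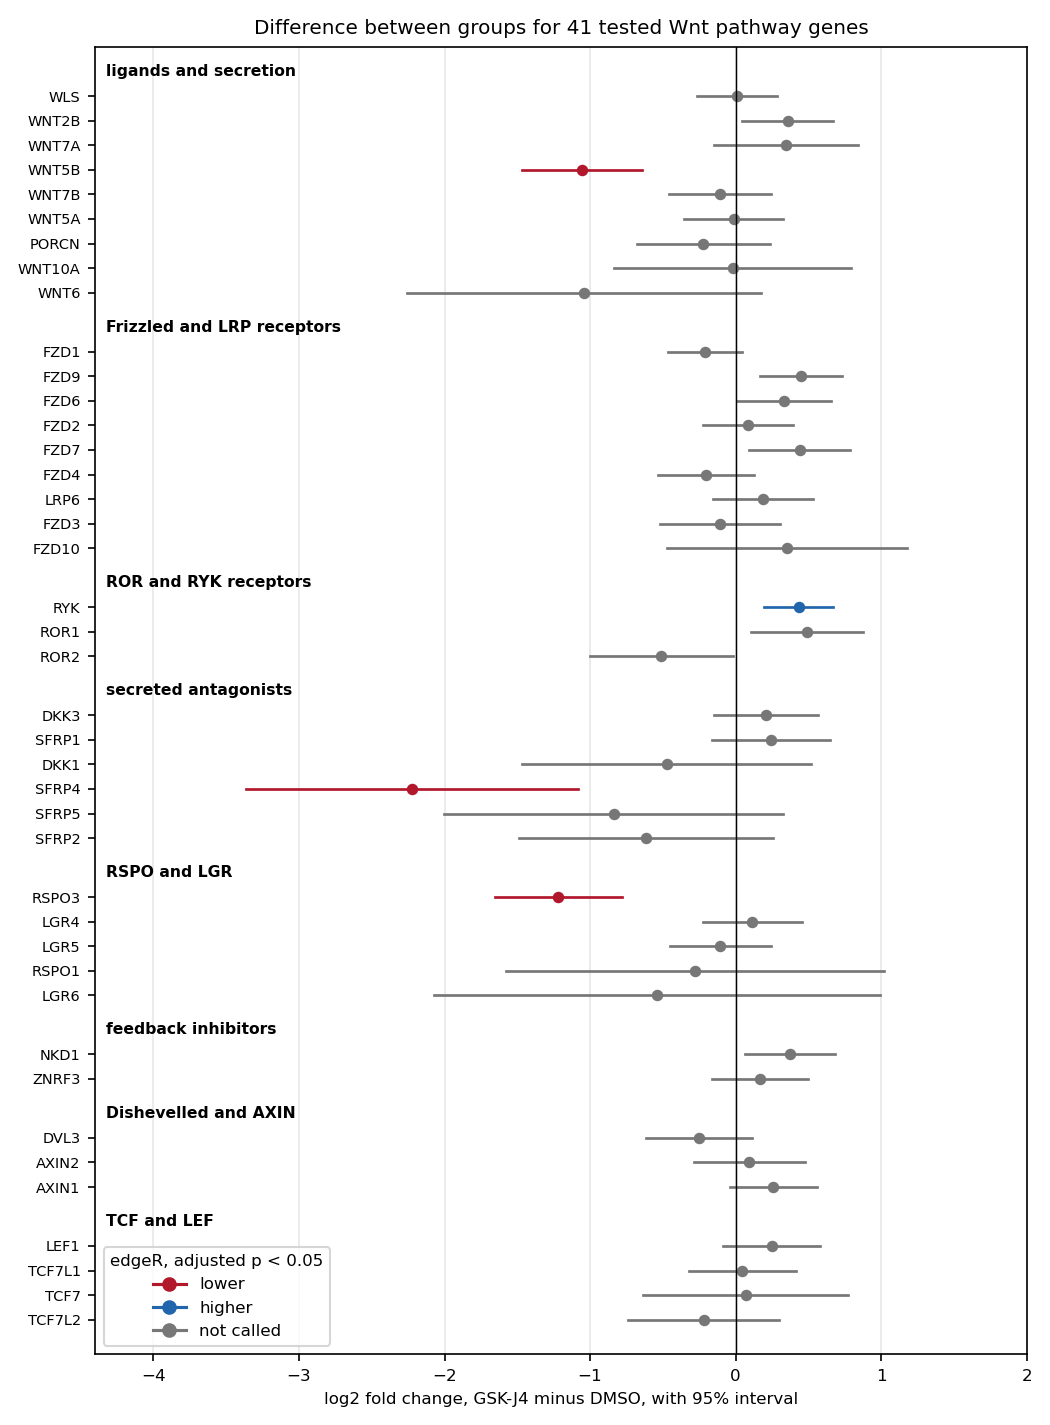
Log2 fold change (x axis, GSK-J4 minus DMSO) with its 95% interval for the 41 tested Wnt pathway genes, by role and, within a role, by level; red points were called lower, the blue point higher and grey points were not called. WNT5B, SFRP4 and RSPO3 lie below -1 with intervals clear of 0, RYK lies at 0.43, and most others lie near 0.

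WNT5B and RSPO3 had the firmest differences, and SFRP4 and RYK were nearer to the threshold. WNT5B (ENSGALG00000012998, chromosome 1, 60852680 to 60917603, plus strand) encodes a ligand known mainly for signalling without beta-catenin. Its level was 41.8, 40.1 and 65.7 CPM in DMSO replicates 1, 2 and 3, and 24.8, 23.2 and 22.9 CPM in GSK-J4 replicates 1, 2 and 3. Every GSK-J4 library lay below every DMSO library, and the GSK-J4 values were much closer together than the DMSO values. The mean fell from 49.2 ± 14.3 to 23.6 ± 1.06 CPM (SD, n = 3), a log2 fold change of -1.06 with a standard error of 0.19 and an edgeR adjusted p of 0.0082, which is 2.08-fold lower. The adjusted p was 0.0617 when GSK-J4 replicate 2 was left out and 0.0509 when replicate 3 was.

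RSPO3 (ENSGALG00000042607, chromosome 3, 59341241 to 59399436, minus strand) encodes an R-spondin, a secreted amplifier of the response to Wnt ligands. DMSO libraries held 25.9, 23.8 and 35.3 CPM, and GSK-J4 libraries 10.8, 10.7 and 15.1 CPM. The groups were well separated, and replicate 3 was the highest library in each. Its mean went from 28.4 ± 6.10 to 12.2 ± 2.51 CPM (SD, n = 3), which is 2.33-fold lower, with a log2 fold change of -1.22, a standard error of 0.20 and an edgeR adjusted p of 0.0051. RSPO3 was the Wnt gene called under all 18 alternative settings, with a highest adjusted p of 0.042 without GSK-J4 replicate 2.

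SFRP4 (ENSGALG00000031997, chromosome 2, 46095977 to 46105425, plus strand) encodes a secreted Frizzled-related protein, which binds Wnt ligands outside the cell. It was scarce, with 23, 38 and 59 counts in the DMSO libraries and 4, 14 and 8 in the GSK-J4 libraries, that is 1.31, 2.22 and 3.55 CPM against 0.25, 0.654 and 0.574 CPM. No GSK-J4 library reached the lowest DMSO library, although the DMSO libraries themselves were widely spread. The log2 fold change was -2.22 with a standard error of 0.52 and an edgeR adjusted p of 0.0329, from 2.36 ± 1.13 to 0.493 ± 0.214 CPM (SD, n = 3), which is 4.67-fold lower. SFRP4 was called in 11 of 18 alternatives and lost, among others, without DMSO replicate 3 (adjusted p = 0.141) and without each GSK-J4 replicate in turn (0.0917, 0.0993 and 0.107).

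RYK (ENSGALG00000006488, chromosome 9, 4665763 to 4707010, plus strand) encodes a receptor with an inactive kinase domain that binds WNT5A and other ligands. It stood at 123, 131 and 109 CPM in the DMSO libraries and at 158, 168 and 165 CPM in the GSK-J4 libraries. The groups did not overlap, and the GSK-J4 libraries were close to each other. The rise was small: the mean went from 121 ± 11.0 to 163 ± 4.80 CPM (SD, n = 3), 1.35-fold, with a log2 fold change of 0.43, a standard error of 0.11 and an edgeR adjusted p of 0.0415. The call was made in 11 of 18 alternatives; without DMSO replicate 3 the adjusted p was 0.13, without each GSK-J4 replicate in turn it was 0.0733, 0.16 and 0.145, and with libraries scaled by their totals it was 0.0984.

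**Figure D2:**
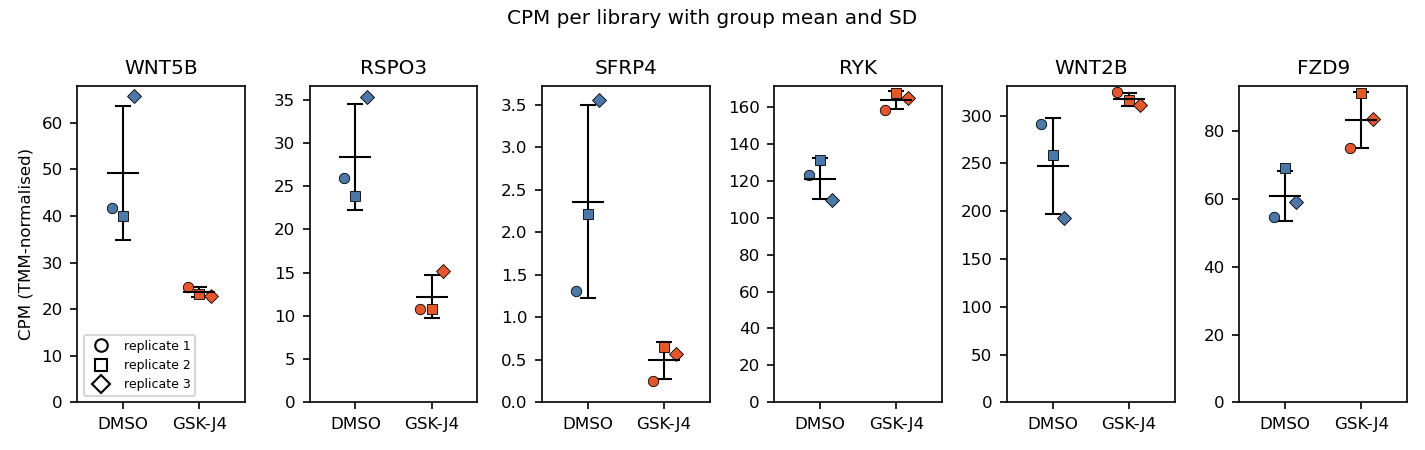
CPM (y axis, from 0, scaled by TMM) of the 4 called genes, WNT5B, RSPO3, SFRP4 and RYK, and of WNT2B and FZD9, which were not called, in each library; marker shapes give the replicate number, and lines show the group mean and SD over 3 libraries. The groups do not overlap in any of the 6 panels, and DMSO replicate 3 is the highest DMSO library for WNT5B, RSPO3 and SFRP4. The 6 genes shown are among the 13 of 41 tested Wnt genes (31.7%) without overlap, against 24.3% of all tested genes.

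Summed myofibroblast and fibroblast markers and summed mitotic genes were also lower in GSK-J4, while the sums of lens fibre and lens epithelial markers overlapped between the groups. For comparison with the calls below, 3.99% of all tested genes were called lower and 1.05% higher. Summed CPM of the 14 tested myofibroblast and fibroblast markers was 2580 to 3920 in DMSO and 886 to 1280 in GSK-J4. Of these markers, 9 were called lower and none of the 14 higher. Summed CPM of the 17 tested mitotic genes was 640 to 963 in DMSO and 221 to 244 in GSK-J4, with 15 called lower. Lens fibre markers summed to 59200 to 75300 CPM in DMSO and 71000 to 101000 CPM in GSK-J4, with 1 of 13 tested called higher and 0 lower. Lens epithelial markers summed to 47300 to 56300 CPM and 56000 to 63800 CPM. Among them GJA1 was called higher (log2 fold change 0.50, edgeR adjusted p = 0.0387) and AQP1 lower (-1.54, 0.0033). In bulk samples, fewer cells of a type and less RNA per cell cannot be told apart. The part of these markers in the lower WNT5B, RSPO3 and SFRP4 was not tested. Retinal markers summed to 25.9 to 37.3 CPM in DMSO and 16.9 to 19.6 CPM in GSK-J4, almost all of it from RBPMS, which was called lower (log2 fold change -0.82, edgeR adjusted p = 0.021), with NEUROD1 and POU4F1 among the markers at 0. Vascular markers summed to 16.9 to 24.3 CPM in DMSO and 14.5 to 16.4 CPM in GSK-J4, with FLT1 called lower (log2 fold change -1.90, edgeR adjusted p = 0.039) and CDH5 at 0. Blood and immune markers, none of them called, summed to 3.31 to 21.1 CPM and 4.02 to 9.9 CPM, with HBBA, HBE, HBE1 and HBZ at 0.

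Among the ligands, 7 of 18 were tested, and 1 of them, WNT5B, was called. To compare levels between genes, the authors' FPKM values (fragments scaled to gene length and to library size) were used, since they allow for gene length. WNT2B, a ligand of the beta-catenin branch, was the most abundant ligand, at 103 to 173 FPKM over the 6 libraries, followed by WNT7A at 57.4 to 115 FPKM. In 5 of 6 libraries WNT2B was above WNT7A, and DMSO replicate 3 had the reverse order. WNT5B followed at a mean of 18.0 FPKM, WNT7B at 16.8 FPKM and WNT5A at 13.5 FPKM, and WNT10A and WNT6 were scarce, at 2.78 and 1.25 FPKM.

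The ligands' FPKM values summed to 264, 254 and 292 in the DMSO libraries and to 300, 321 and 321 in the GSK-J4 libraries. WNT2B made up 57.2, 52.9 and 35.4% of that sum in DMSO, and 57.7, 51.7 and 50.9% in GSK-J4. The share of WNT5B was 7.71, 7.67 and 11.3% in DMSO, and 4.14, 3.56 and 3.51% in GSK-J4. WNT5B thus went from a share above that of WNT7B and WNT5A in each DMSO library to one below both in each GSK-J4 library, while WNT5A held 3.81 to 5.87% throughout.

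**Figure D3:**
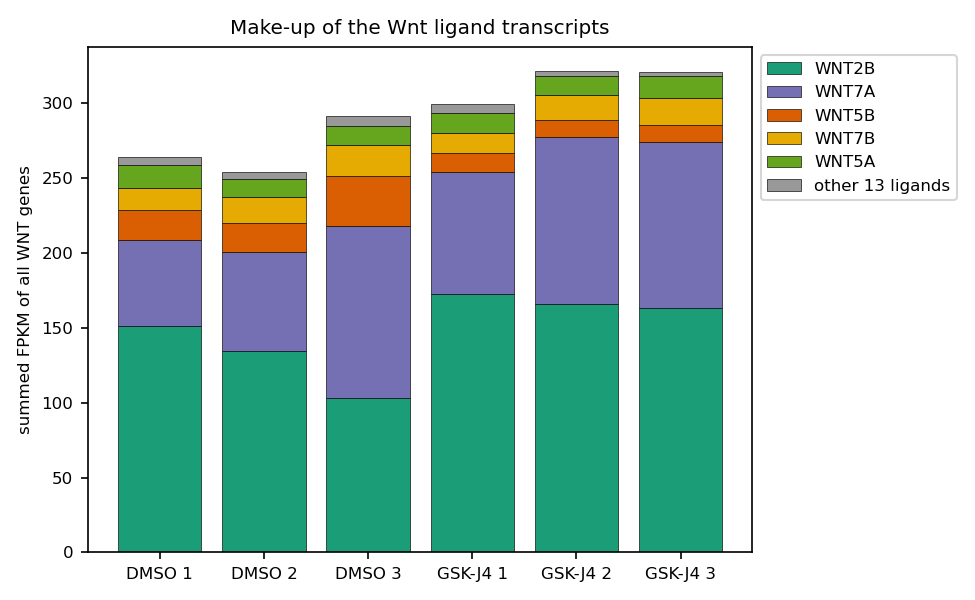
Summed FPKM of the 18 WNT genes (y axis, authors' values, from 0) in each of the 6 libraries, stacked by gene. WNT2B and WNT7A fill most of each bar, DMSO replicate 3 has the smallest WNT2B part (35.4%), and the WNT5B part is thinner in the 3 GSK-J4 libraries (3.51 to 4.14%) than in the 3 DMSO libraries (7.67 to 11.3%).

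WNT2B was at 291, 259 and 192 CPM in DMSO, and at 324, 316 and 311 CPM in GSK-J4. No DMSO library reached the lowest GSK-J4 library, but the DMSO libraries differed widely among themselves. The log2 fold change was 0.36 (95% interval 0.04 to 0.67), which did not pass the test (edgeR adjusted p = 0.195). WNT2B was called in 1 of 18 alternatives, the fit without DMSO replicate 1 (0.0485). Without DMSO replicate 3 its log2 fold change was 0.21 (edgeR adjusted p = 0.396). WNT7A was at 67.3, 77.4 and 130 CPM in DMSO, and at 92.8, 128 and 128 CPM in GSK-J4. DMSO replicate 3 lay among the GSK-J4 libraries, and the log2 fold change of 0.35 (95% interval -0.15 to 0.84) did not pass (edgeR adjusted p = 0.451).

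WNT5A, the close relative of WNT5B, had a log2 fold change of -0.01 (95% interval -0.35 to 0.32), and the interval of WNT5B, -1.47 to -0.65, lay wholly below it. The difference between the 2 genes' changes was not tested. WNT7B had a log2 fold change of -0.11, WNT10A of -0.02 and WNT6 of -1.04, the last with a 95% interval of -2.26 to 0.18 from 159 counts in all. WNT10A and WNT6 are neighbours on chromosome 7 (22386125 to 22397621 and 22402840 to 22410862, both on the minus strand), 5.22 kb apart. WNT6 did not pass the test (edgeR adjusted p = 0.348), and its log2 fold change was -1.86 without GSK-J4 replicate 1.

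The other 11 ligands were too scarce to test: WNT9A, WNT1, WNT4, WNT2, WNT16, WNT9B, WNT11, WNT3, WNT8B, WNT8A and WNT3A. WNT9A had 74 counts in all and was the only untested Wnt gene with at least 10 counts in 3 libraries. WNT1 had 38 counts over the 6 libraries, WNT4 had 10, and the remaining 8 ligands between 0 and 6. WNT3A was at 0 in every library, where 3 counts, the limit that a count of 0 allows, correspond to 0.14 to 0.215 CPM. This limit covers counting error only. The neighbouring pairs WNT9B and WNT3 on chromosome 27, 13.4 kb apart, and WNT3A and WNT9A on chromosome 2, 31 kb apart, were all among the untested genes.

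Of the secretion genes, WLS was measured deeply, with 108634 counts in all, and PORCN less so, with 1045. WLS, the carrier that every lipid-modified Wnt needs to leave the cell, was the second most abundant Wnt gene, at 330 to 414 FPKM. It had 1198.5, 989 and 986 CPM in DMSO, and 1202, 969 and 1025 CPM in GSK-J4. The groups overlapped throughout, with a log2 fold change of 0.01 (95% interval -0.26 to 0.28). PORCN, the enzyme that acylates Wnt ligands, was scarce by comparison, at a mean of 5.10 FPKM. Its log2 fold change was -0.22 (95% interval -0.68 to 0.24, edgeR adjusted p = 0.623).

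None of the 8 Frizzled genes found by the rule passed the test, nor did LRP6, a co-receptor of the beta-catenin branch. All 9 had at least 10 counts in each library. FZD5, FZD8 and LRP5 had no row under their symbols, so whether they changed is not known. FZD1 and FZD9 were the most abundant, at 41.8 and 39.0 FPKM on average over the 6 libraries. By group, FZD1 averaged 44.7 FPKM and FZD9 32.8 FPKM in DMSO, while in GSK-J4 FZD1 averaged 38.9 FPKM and FZD9 45.2 FPKM; this change of order was not tested. FZD1 had 94.6, 83.7 and 89.4 CPM in DMSO, and 85.5, 70.2 and 75.6 CPM in GSK-J4, a log2 fold change of -0.21 (95% interval -0.46 to 0.04). The FZD1 groups overlapped. The summed FPKM of these 8 Frizzled genes was 144 to 148 in DMSO and 156 to 168 in GSK-J4. FZD1 made up 21.0 to 32.4% of it.

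FZD9 came closest to the threshold. It stood at 54.7, 69.0 and 58.9 CPM in DMSO, and at 75.0, 91.2 and 83.4 CPM in GSK-J4. All GSK-J4 libraries were above all DMSO libraries, and replicate 2 was the highest in each group. The log2 fold change was 0.45 (95% interval 0.17 to 0.73) with an edgeR adjusted p of 0.0719, and FZD9 was called in 4 of 18 alternatives, among them DESeq2 (0.0251) and the fit without DMSO replicate 2 (0.0342).

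FZD6 had 77.7, 87.9 and 93.7 CPM in DMSO, and 95.6, 134 and 96.9 CPM in GSK-J4. The groups did not overlap, but 2 of the 3 GSK-J4 libraries lay just above the highest DMSO library. The log2 fold change was 0.33 (edgeR adjusted p = 0.244). FZD7 had a log2 fold change of 0.44 (edgeR adjusted p = 0.150) with groups that did not overlap, and without DMSO replicate 1 its adjusted p was 0.034. The remaining Frizzled genes, FZD2, FZD4, FZD3 and FZD10, had log2 fold changes of 0.08, -0.20, -0.11 and 0.35, and LRP6 of 0.19 (95% interval -0.16 to 0.53).

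The 3 receptors outside the Frizzled family did not share a direction. ROR1, a receptor tyrosine kinase-like protein that takes part in WNT5A signalling, was at 101, 92.8 and 59.3 CPM in DMSO, and at 117, 112 and 126 CPM in GSK-J4. No libraries overlapped, with DMSO replicate 3 far below the rest, and the log2 fold change of 0.49 did not pass (edgeR adjusted p = 0.144). ROR1 was called in 1 of 18 alternatives, the fit without DMSO replicate 1 (0.0432). Without DMSO replicate 3 its log2 fold change was 0.29.

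ROR2, the related receptor for WNT5A, was scarcer, at 2.79 FPKM on average against 27.3 FPKM for ROR1. It had 8.54, 8.70 and 8.37 CPM in DMSO, and 7.82, 5.09 and 5.09 CPM in GSK-J4, a log2 fold change of -0.51 (edgeR adjusted p = 0.243). The GSK-J4 libraries were all below the DMSO libraries. ROR2 is the Wnt gene on the Z chromosome, and the W-linked CPM, which varies with the share of female cells, was 390, 938 and 910 in DMSO, and 350, 763 and 15.6 in GSK-J4. The part of the sex mix in the ROR2 values was not tested.

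**Figure D4:**
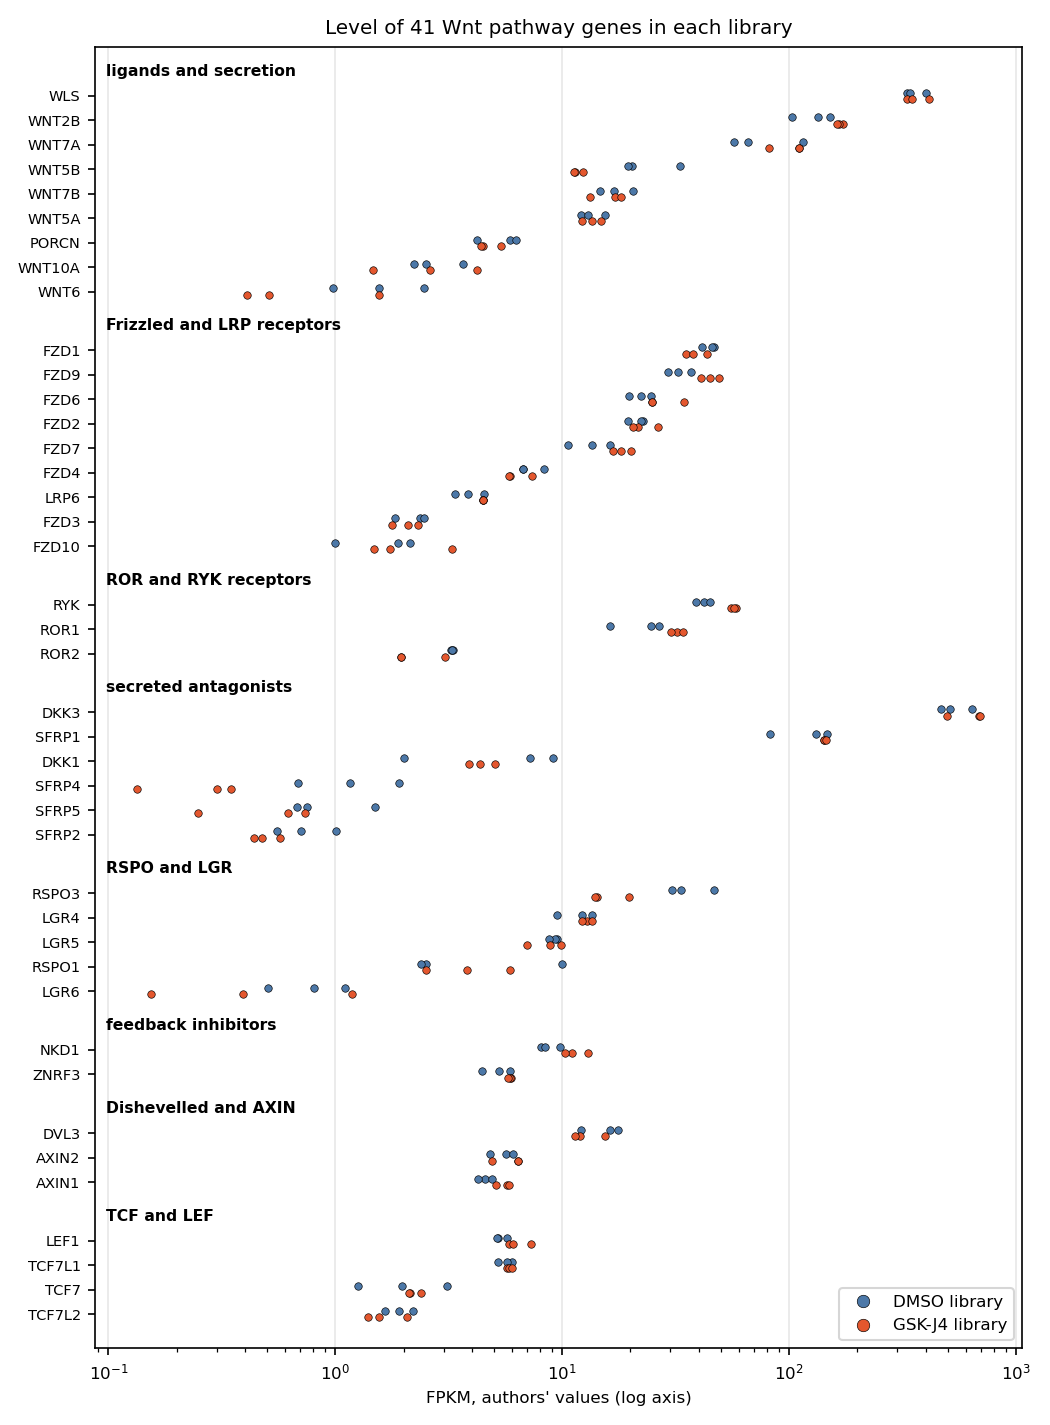
FPKM (x axis, log scale, authors' values) of the 41 tested Wnt pathway genes in each library, blue for DMSO and orange for GSK-J4, by role. Levels span from DKK3 at 467 to 694 FPKM down to SFRP2, SFRP4, SFRP5 and LGR6 below 2 FPKM. The 3 orange points lie clearly apart on the left for WNT5B, RSPO3 and SFRP4.

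Among the secreted antagonists, the abundant genes had no detectable difference and 1 scarce gene, SFRP4, fell. DKK3, a member of the Dickkopf family that is not known to block LRP6 as DKK1 does, was the most abundant Wnt gene of all, at 467 to 694 FPKM. It was at 608, 837 and 645 CPM in DMSO, and at 631, 887 and 894 CPM in GSK-J4. The groups overlapped (log2 fold change 0.21, 95% interval -0.15 to 0.56). DKK3 made up 98.5 to 99.6% of the summed FPKM of DKK3 and DKK1, the DKK genes with a symbol.

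SFRP1, a Wnt-binding antagonist, was at 473, 529 and 287 CPM in DMSO, and at 501, 506 and 519 CPM in GSK-J4. DMSO replicate 3 was far below the other 5 libraries, and the log2 fold change was 0.24 (95% interval -0.16 to 0.65) with that library and 0.02 without it. SFRP1 made up 94.9 to 99.4% of the summed FPKM of the 4 genes with an SFRP symbol. The 4.67-fold lower SFRP4 therefore changed little in that sum, which was 87.0 to 150 FPKM in DMSO and 144 to 147 FPKM in GSK-J4. The sum leaves out FRZB, a secreted Frizzled-related protein with another symbol. FRZB averaged 41.4 CPM in DMSO and 30.8 CPM in GSK-J4, and the groups overlapped. Its log2 fold change of -0.43 (95% interval -0.78 to -0.08) did not pass the test (edgeR adjusted p = 0.161). SFRP5 and SFRP2 had log2 fold changes of -0.84 and -0.62, with edgeR adjusted p of 0.436 and 0.448.

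DKK1, which blocks the beta-catenin branch by binding LRP5 and LRP6, was scarce, at 4.89, 6.19 and 1.32 CPM in DMSO, and at 2.56, 3.41 and 2.94 CPM in GSK-J4. The GSK-J4 libraries lay between the DMSO libraries, and the log2 fold change was -0.47 (95% interval -1.47 to 0.52). WIF1, another Wnt-binding antagonist, had 41 counts in all and was not tested.

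The symbol rule misses rows that the table describes but does not name, and 1 of these differed between the groups. The row ENSGALG00000028041, described there as dickkopf WNT signaling pathway inhibitor 2 (DKK2), was looked up after its values were seen. It had 31, 31 and 65 counts in DMSO, and 5, 17 and 4 counts in GSK-J4, that is 1.76, 1.81 and 3.91 CPM against 0.313, 0.794 and 0.287 CPM. The groups did not overlap, and DMSO replicate 3 was again the highest. The log2 fold change was -2.34 with a standard error of 0.53 and an edgeR adjusted p of 0.0293, and without DMSO replicate 3 the adjusted p was 0.127. Leaving out GSK-J4 replicate 1 or 3 gave 0.0876 and 0.126. The row described as ring finger protein 43 (RNF43), ENSGALG00000001028, had a log2 fold change of -0.19 (edgeR adjusted p = 0.825). Of the 61 chicken RefSeq symbols that fit the rule, 52 had a row under that symbol. The others were DKK2 and RNF43, described above, and DKK4, DVL1, DVL2, FZD5, FZD8, LRP5 and WNT11B, for which no row was found by symbol. The row named DVL3 is described as dishevelled segment polarity protein 2, so DVL2 may have been measured there, as given below.

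RSPO3 was the main R-spondin as well as the called one. It made up 76.2 to 91.7% of the summed FPKM of the 4 RSPO genes, a sum of 36.3, 33.4 and 57.0 in DMSO and of 17.0, 17.9 and 25.7 in GSK-J4. The sum was lower in each GSK-J4 library than in each DMSO library. RSPO1, another R-spondin, was at 4.95, 4.67 and 19.0 CPM in DMSO, and at 4.82, 7.38 and 11.4 CPM in GSK-J4. Its log2 fold change of -0.28 rested on DMSO replicate 3, without which it was 0.70. RSPO2, with 57 counts, and RSPO4, with 6, were not tested.

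The receptors that R-spondins bind had no detectable difference. LGR4 was at 39.2, 35.4 and 26.6 CPM in DMSO, and at 36.0, 34.9 and 38.7 CPM in GSK-J4, with overlapping groups and a log2 fold change of 0.12 (95% interval -0.22 to 0.45). LGR5, known as a stem cell marker in the intestine of mammals, was at 24.3, 23.9 and 21.7 CPM in DMSO, and at 17.5, 24.9 and 22.6 CPM in GSK-J4. The LGR5 groups overlapped too, with a log2 fold change of -0.10 (95% interval -0.45 to 0.24). LGR6 had 63 counts in all and a log2 fold change of -0.54 (95% interval -2.07 to 0.99). Without GSK-J4 replicate 1 the LGR6 value was -1.62, and without GSK-J4 replicate 2 it was -0.02.

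The feedback inhibitors, which Wnt signalling switches on in many tissues, were not called. NKD1, which binds Dishevelled, was at 35.7, 29.5 and 29.6 CPM in DMSO, and at 39.2, 36.9 and 47.0 CPM in GSK-J4. The groups did not overlap, but the log2 fold change of 0.37 did not pass (edgeR adjusted p = 0.173). ZNRF3, a ubiquitin ligase that removes Frizzled from the surface, had a log2 fold change of 0.17, with GSK-J4 libraries at 17.6 to 17.9 CPM and the highest DMSO library also at 17.6 CPM.

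AXIN2, a widely used readout of beta-catenin signalling because it is a direct target as well as a part of the destruction complex, was at 14.8, 15.9 and 12.2 CPM in DMSO, and at 16.4, 16.5 and 12.8 CPM in GSK-J4. The groups overlapped, and replicate 3 was the lowest in each. Its log2 fold change was 0.10 (95% interval -0.29 to 0.48), so at this depth and spread a change of 2-fold lies outside the interval. AXIN1, the scaffold of the complex, had a log2 fold change of 0.26 (edgeR adjusted p = 0.339) with groups that did not overlap. The row named DVL3 had a log2 fold change of -0.25 (edgeR adjusted p = 0.453), but the table describes it as dishevelled segment polarity protein 2, so which Dishevelled gene it stands for is uncertain.

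The TCF and LEF factors, which bring beta-catenin to DNA, did not pass either. LEF1 was at 16.0, 17.5 and 15.3 CPM in DMSO, and at 17.3, 21.9 and 18.5 CPM in GSK-J4, a log2 fold change of 0.25 (95% interval -0.09 to 0.58). TCF7L1 was at 9.21 to 11.0 CPM in DMSO and at 10.2 to 10.9 CPM in GSK-J4, a log2 fold change of 0.05. TCF7 and TCF7L2 had log2 fold changes of 0.07 and -0.22. The groups of all 4 genes overlapped.

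The same fit was read for other genes of the pathway, in lists that hold no gene picked by the symbol rule. FRZB, given above, is in the list of other extracellular antagonists and modulators. Among the genes of the destruction complex and beta-catenin itself, 19 were tested and none was called in either direction, with a median log2 fold change of 0.06. CTNNB1, which encodes beta-catenin, was at 690 to 785 CPM in DMSO and at 624 to 699 CPM in GSK-J4. Among 14 tested nuclear cofactors none was called, with a median of 0.09. Among 15 other extracellular antagonists and modulators none was called, with a median of -0.27 and 11 of the 15 values negative, beside a median of 0.01 and 47.8% negative values over all tested genes.

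In the planar polarity and non-canonical branch, 2 of 25 tested genes fell and none rose, beside 3.99% lower and 1.05% higher over all tested genes. The median log2 fold change of the list was -0.03. PRICKLE1, a core planar polarity protein, was at 19.9, 16.1 and 25.2 CPM in DMSO, and at 6.19, 6.54 and 6.96 CPM in GSK-J4. The groups were far apart (log2 fold change -1.63, edgeR adjusted p = 0.000762). NFATC2, a calcium-regulated transcription factor, was at 3.07, 4.32 and 7.83 CPM in DMSO, and at 1.75, 2.10 and 1.22 CPM in GSK-J4, a log2 fold change of -1.56 (edgeR adjusted p = 0.0419). NFATC2 was called in 11 of 18 alternatives, and not without DMSO replicate 3 (0.169).

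Of the Wnt target genes known from other tissues, 5 of 21 tested fell and none rose, where 3.99% of all tested genes were called lower and 1.05% higher. AXIN2 and the feedback inhibitors NKD1 and ZNRF3, given above, are not in this list, and none of them was called. The median of the list was -0.29 on the log2 scale, beside 0.01 over all genes. Like the other lists, it was chosen with earlier results of these data known, so its share is a description and not a test. WISP1, a matricellular protein, was at 31.4, 36.5 and 48.7 CPM in DMSO, and at 11.9, 6.68 and 9.75 CPM in GSK-J4 (log2 fold change -2.05, edgeR adjusted p = 0.000581). TWIST1, a transcription factor of mesenchymal cells, was at 3.64, 3.56 and 7.29 CPM in DMSO, and at 0.25, 0.28 and 0.43 CPM in GSK-J4 (log2 fold change -3.91, edgeR adjusted p = 0.00069). In both genes every GSK-J4 library was far below every DMSO library. TWIST1 was scarce, with 262 counts in all and few of them in GSK-J4, and it passed the filter on low counts through the DMSO libraries. Its log2 fold change had a standard error of 0.45. TWIST1 was called in all 18 alternatives, with log2 fold changes from -4.14 to -1.78.

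The other 3 called targets were BIRC5, a mitotic and anti-apoptotic protein, CD44, a hyaluronan receptor, and MET, the receptor of hepatocyte growth factor. BIRC5 had a log2 fold change of -1.56 (edgeR adjusted p = 0.0013), CD44 of -1.30 (0.0013) and MET of -0.83 (0.031). The groups overlapped in none of the 3. MET was called in 11 of 18 alternatives. Among the 16 targets not called, CCND1, a cyclin, had a log2 fold change of 0.09 (edgeR adjusted p = 0.770), and MYC, a growth regulator, of -0.41 (edgeR adjusted p = 0.249). SP5 and MSX2 had log2 fold changes of -0.67 and -1.61 (edgeR adjusted p = 0.348 and 0.0642). PROX1 and MYCN had log2 fold changes of 0.37 and 0.39 (edgeR adjusted p = 0.0591 and 0.116). The groups overlapped in none of SP5, MSX2, PROX1 and MYCN, and they overlapped in every other target not called. Over all tested genes, 24.3% had groups that did not overlap. CTNNB1, FRZB, CCND1, MYC, SP5, MSX2, PROX1 and MYCN were named after their values were seen. As for WNT5B, the myofibroblast and mitotic marker sums were lower in the same GSK-J4 libraries, and their part was not tested.

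**Figure D5:**
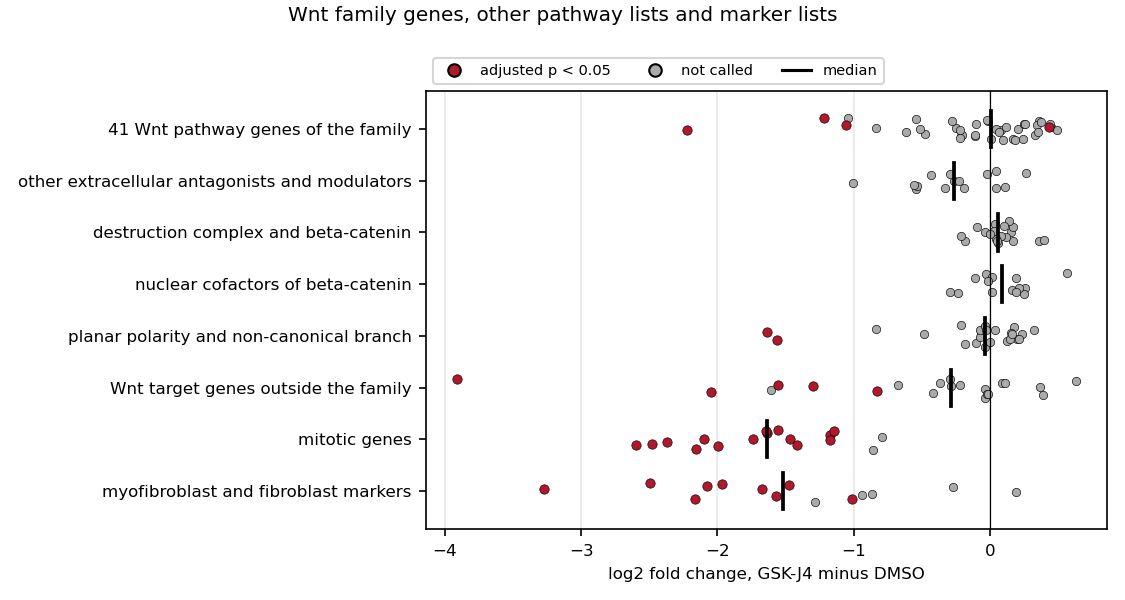
Log2 fold change (x axis, GSK-J4 minus DMSO) of each tested gene in the Wnt family, in 5 other lists of the pathway and in the mitotic and myofibroblast lists; red points were called, grey points were not, and the black bar is the list's median. The Wnt family is centred at 0.01 with 4 called genes, the target list holds 5 called genes below 0, and the mitotic and myofibroblast lists have medians of -1.64 and -1.52.

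All 55 genes are protein-coding and they lie on 24 chromosomes, so the called genes WNT5B, RSPO3, SFRP4 and RYK are not neighbours: they are on chromosomes 1, 3, 2 and 9. Of the 4, SFRP4 shares the family label Fz, for the ligand-binding domain, with the other 3 SFRP genes and the 8 Frizzled genes, 12 genes in all. No other gene with that label was called.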

How the data were processed

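RNA from 6 chicken lens explant libraries, 3 with DMSO and 3 with GSK-J4, was sequenced as 150 bp paired-end reads, per the labels' protocols. The authors deposited whole-number counts per gene, not normalised, and FPKM, which the values show to be the same counts over gene length with a constant for each library. The tools in the submitters' processing notes, listed with no role, were DESeq2 1.20.0, StringTie 1.3.3b, HISAT2 2.0.5 and featureCounts 1.5.0-p3. No genome build, annotation or strand setting is given in the sources used here. Coordinates are those of the deposited table, and reads of overlapping or antisense genes cannot be told apart.

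The counts went into edgeR 4.0.16 (R 4.3.3) with filterByExpr (12583 of 17951 genes with any count), TMM factors and the robust quasi-likelihood test with treatment as the only factor. The Benjamini-Hochberg adjustment ran over all tested genes, and genes were called at an adjusted p below 0.05. Standard errors are absolute log2 fold changes over the root of the F statistic. CPM are TMM-scaled. The biological coefficient of variation was 16.9%. The script was tested on simulated data.

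The Wnt genes and all lists were chosen with earlier results of these data known. Named were all called Wnt genes, the 3 with the highest mean FPKM in each role, other genes in a clause, and the called genes of each list, at most 6. The 18 alternatives covered scaling, filters, the test (DESeq2 1.42.0, limma 3.58.1 with voom, limma-trend on FPKM), a replicate block, robust estimation and leaving out each library.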

Additional observations from a re-analysis of the deposited data

How the results depend on the processing

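The 3 Wnt genes called lower and the 1 called higher, and the 502 and 132 genes called in all, were recounted under 18 alternatives. The Wnt genes called higher numbered 0 with upper-quartile factors, with library totals and with limma-trend on log2(FPKM + 1), and 2 with no filter and with DESeq2, where FZD9 was added to RYK. All genes called higher numbered 269 with no filter and 325 with DESeq2, and all genes called lower 329 and 319 with limma-trend at pseudocounts of 0.1 and 1. Leaving out 1 library at a time gave 0 to 4 Wnt genes called higher and 1 to 3 called lower, and 42 to 271 and 203 to 590 over all genes; the fewest Wnt calls came without GSK-J4 replicate 2 or 3, where RSPO3 alone was left. SFRP4 was lost with limma-voom (adjusted p = 0.0663) and with limma-trend (0.0928 and 0.101), and RYK with upper-quartile factors (0.0548) and with log2(FPKM + 1) (0.0512). The cause of these shifts was not tested. The 2 medians stayed within 0.1 of 0 throughout. With the replicate number as a block, 3 Wnt genes were called higher (FZD7, FZD9 and RYK) and 3 lower, and 406 and 723 genes over all. The correlations of same-numbered libraries were 0.297, 0.17 and 0.0426, and those of other pairs -0.273 to 0.106. By these values 5 of 6 libraries correlated best with their own number, while GSK-J4 replicate 3 correlated best with DMSO replicate 2 (0.106). The correlations are of deviations from the group means, so they are not independent of each other and cannot settle a pairing. W-linked CPM in DMSO and GSK-J4 was 390 and 350 in replicate 1, 938 and 763 in replicate 2, and 910 and 15.6 in replicate 3. The labels do not say whether same-numbered libraries are pairs, so the main test used no block, and whether they are pairs is not known. Low counts kept 14 Wnt genes from being tested, and SFRP4, WNT6 and LGR6 rest on few counts as well as on widely spread libraries.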
